A study of Mus musculus with 2 samples.

Results

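Cathepsins and a small group of other lysosomal genes were described across the myeloid cells of neonatal hearts. The 10 genes, called members below, were Ctsb, Ctsd, Ctsl, Ctss, Ctsz, Ctsk, Ctsc, Ctsh, Lyz2 and Lamp1, chosen by name out of the 32285 genes of the count matrices, and all 10 were found in both matrices. The cells came from 2 single-cell RNA libraries, 1 from wild-type (WT) mice and 1 from mice with a global loss of Lyve1 (Lyve1 KO), the hyaluronan receptor gene that marks lymphatic vessels and a population of tissue-resident macrophages. In both groups a myocardial infarction was made on postnatal day 2 by tying off a coronary artery, 5 hearts per library were pooled 7 days after the operation, when the pups were 9 days old, and live cells carrying the leukocyte antigen CD45 were sorted. The WT mice of the study were C57BL/6 or CD1 where stated, and which of these strains gave this library is not given in the sources used here. The comparison between the libraries therefore asks how lysosomal transcripts differ between a pool with Lyve1 and a pool without it. With 1 library per genotype there is no replicate check, no difference between the libraries was tested, and every interval below covers counting error only.

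Lysosomes are acidic organelles in which macrophages break down what they engulf, and after an infarction macrophages clear dead cardiomyocytes and other debris through them. Cathepsins are the main lysosomal proteases. Most are cysteine proteases that are made as inactive precursors and mature in the acid lumen, whereas cathepsin D is an aspartic protease. Lysozyme cuts the cell walls of bacteria, and LAMP proteins form much of the inner coat of the lysosomal membrane.

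The libraries held 67968938 unique molecular identifiers (UMIs, counted RNA molecules) in 5713 cell barcodes for WT and 61555917 UMIs in 5285 barcodes for Lyve1 KO. After limits on genes, UMIs and mitochondrial share, and after predicted doublets were left out, 4187 and 3391 cells remained, with medians of 11106 and 12856 UMIs per cell. The libraries shared 3 barcodes among these cells. Clusters were named from fixed marker genes, none of which was a member, and each name ends in "-like" because it rests on those markers only. Counted as WT and KO cells, there were 195 and 130 Folr2 macrophage-like cells, 547 and 216 Olfml3 macrophage-like cells, 71 and 17 Cd207 Clec4f macrophage-like cells, 59 and 53 cavity macrophage-like cells led by Saa3, Prg4 and Marco, and 188 and 56 cycling macrophage-like cells. The Olfml3 class joined an Olfml3-led cluster of 397 and 155 cells with a cluster of 150 and 61 cells led by Gdf15, Cd83 and Sdc4. In the latter no marker of the Olfml3 list was among the 10 leading genes. A further 211 and 189 cells were CCR2+ macrophage-like and were led by Spp1, Mmp12 and Gpnmb. There were 240 and 241 classical monocyte-like, 178 and 215 non-classical monocyte-like, 62 and 39 dendritic cell-like and 351 and 337 neutrophil-like cells, beside 276 and 350 T cell-like and 332 and 442 B cell-like cells. An unnamed Cd209a-led cluster of 37 and 37 cells, nearest to the dendritic cell list, is not part of the dendritic cell-like class. In all, 1341 WT cells (32.0%) and 906 KO cells (26.7%), this cluster among them, were unnamed or of other types and enter no class value. Their median depths were 1758 and 1272 UMIs. They included a low-depth cluster nearest to the macrophage list, with 240 WT and 38 KO cells. The summed level of the 13 macrophage markers lay between 16270 and 44020 CPM (UMIs per 1000000 UMIs of all genes) in the 6 macrophage-like classes, and at or below 348 CPM in the dendritic cell-like and neutrophil-like classes. As a check of the genotype labels, Lyve1 (chr7:110850607-110863239 in GRCm38) stood at 1610 CPM in WT and 35.4 in KO Folr2 macrophage-like cells. In KO it lay between 2.52 and 35.4 CPM over the 6 macrophage-like classes, and in the CCR2+ class the KO level of 23.1 was above the WT level of 3.02.

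Levels are given in CPM, the UMIs of a gene per 1000000 UMIs of all genes in the cells of 1 class and library, with exact 95% Poisson intervals where shown. Since the 2 libraries are separate pools, their 2 values served as the only measure of how far a level varied, and 2 classes whose values overlapped across the libraries were not placed in order. Stray RNA was read from Lyz2 and Ctsh, which were low in T cell-like cells. At a fixed depth of 6500 UMIs per cell, Lyz2 gave a UMI in 3.87% of WT and 3.58% of KO T cell-like cells and Ctsh in 0.552% and 1.43%, and without thinning Lyz2 gave a UMI in 8.33% and 9.14% at median depths of 11455 and 12342 UMIs. In B cell-like cells Lyz2 made up 0.000663% of UMIs in WT and 0.00172% in KO, so there its low level was not equal between the libraries.

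The 10 members together made up 1 to 3 of every 100 UMIs in most mononuclear phagocyte classes and less in the other classes. Classical monocyte-like cells had the highest share, at 2.70% of UMIs in WT and 2.79% in KO. Cavity macrophage-like cells at 2.47% and 1.74%, the CCR2+ class at 1.71% and 2.06%, the Folr2 class at 1.80% and 1.84% and the non-classical monocyte-like class at 1.62% and 1.85% overlapped. Olfml3 macrophage-like cells were at 1.49% and 1.65%, the Cd207 Clec4f class at 1.47% and 1.35%, and cycling macrophage-like cells at 0.994% and 1.19%. Neutrophil-like cells reached 0.613% and 0.689% as a class and 1.45% and 1.39% in a cluster led by Ngp. Dendritic cell-like cells held 0.298% and 0.292%, and T cell-like cells 0.0459% and 0.0515%. Much of this was Lyz2. Without it the order changed, with Folr2 macrophage-like cells at 1.17% and 1.14%, which overlapped with the CCR2+ class at 1.07% and 1.14%. Classical monocyte-like cells were then at 0.637% and 0.652%.

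**Figure D1:**
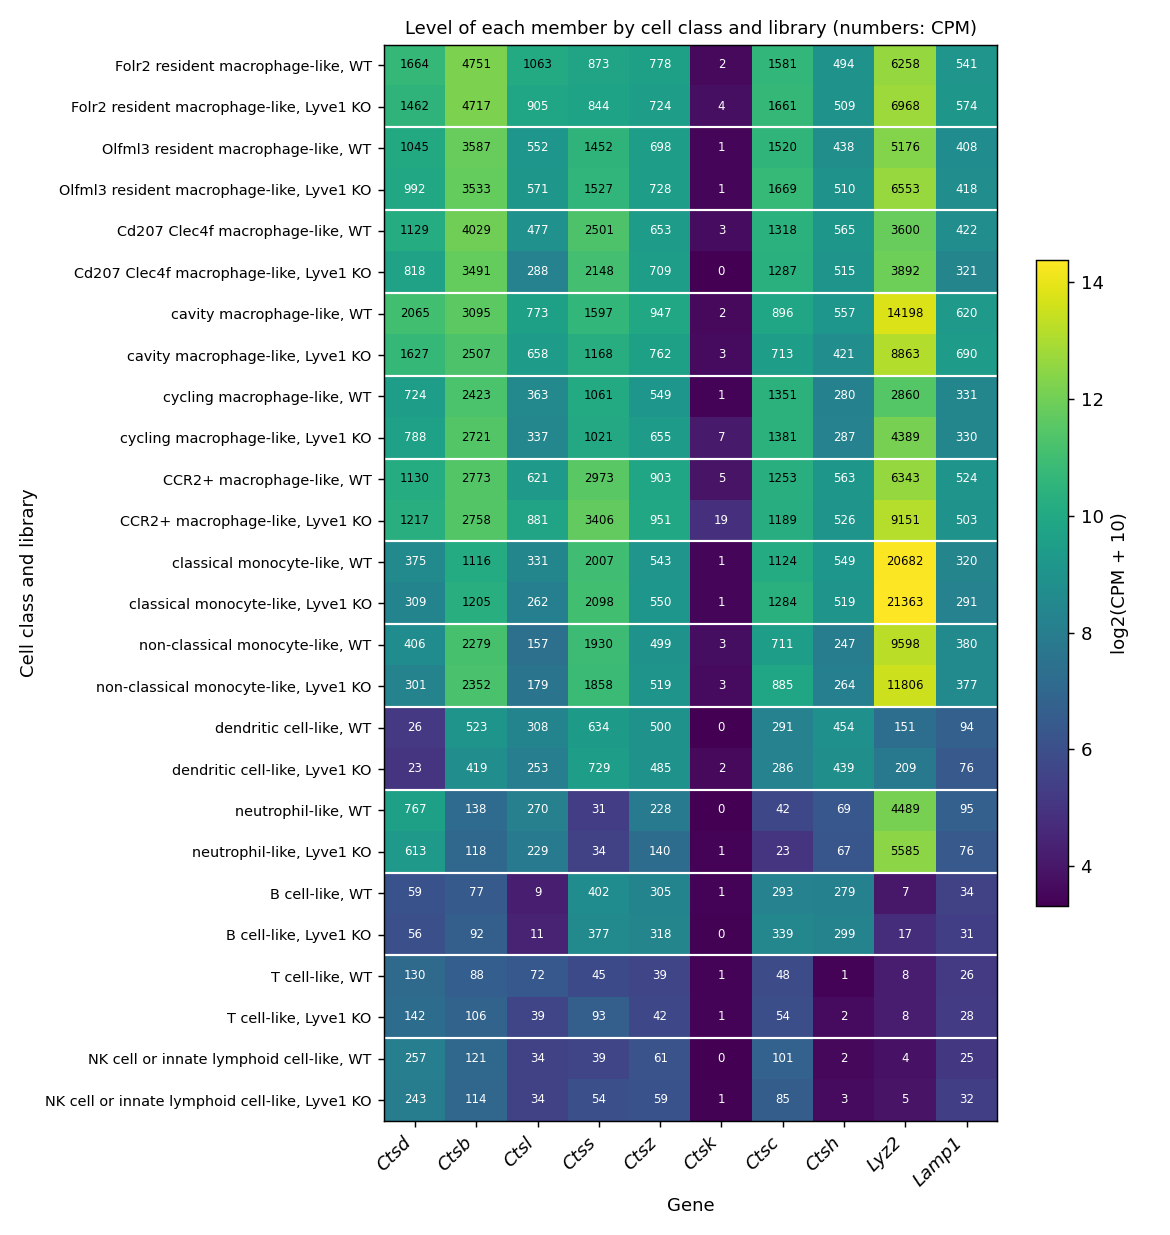
Level of each of the 10 members (columns) in each myeloid and lymphoid class and library (rows), in CPM on a log colour scale. Ctsb and Ctsd were high in the macrophage-like rows, Ctss was high in the CCR2+, Cd207 Clec4f and monocyte-like rows, and Lyz2 peaked in classical monocyte-like cells at 20682 CPM in WT and 21363 in KO.

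Ctsd (ENSMUSG00000007891, chr7:142375911-142388038, minus strand) encodes cathepsin D, the aspartic protease of the group. It was highest in cavity macrophage-like cells, at 2065 CPM in WT and 1627 in KO, and in Folr2 macrophage-like cells, at 1664 and 1462 CPM, and these 2 classes overlapped. CCR2+ macrophage-like cells had 1130 and 1217 CPM and Olfml3 macrophage-like cells 1045 and 992 CPM. Relative to classical monocyte-like cells the Folr2 class was 4.44-fold higher in WT (interval 4.23 to 4.66) and 4.74-fold higher in KO (4.50 to 4.99). Neutrophil-like cells as a class, at 767 and 613 CPM, were above both monocyte-like classes, which held 301 to 406 CPM. The Ngp-led neutrophil-like cells, at 292 and 225 CPM, were below both. Ctsd was the 1 member for which the classical monocyte-like class was lower than the neutrophil-like class in both libraries. Dendritic cell-like cells had only 25.96 and 22.8 CPM, 43.5-fold and 53.4-fold below CCR2+ macrophage-like cells. Within them the clusters ranged from 0.973 and 2.89 CPM in cells led by Clec9a to 111 and 114 CPM in cells led by Siglech, which held 32 of the WT and 27 of the KO UMIs.

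Ctsb (ENSMUSG00000021939, chr14:63122462-63145923, plus strand) encodes cathepsin B, a cysteine protease that works both within chains and from their carboxyl end. Folr2 macrophage-like cells were at the top with 4751 CPM in WT (4692 to 4811) and 4717 in KO (4649 to 4786). They were 1.32-fold above Olfml3 macrophage-like cells in WT and 1.34-fold in KO, and 1.71-fold above CCR2+ macrophage-like cells in each library. Taken as classes, all 6 macrophage-like classes, at 2423 to 4751 CPM, were above the monocyte-like classes in their own library. By cluster, the Hist1h2ae-led part of the cycling class, at 2109 and 2344 CPM, overlapped with the non-classical monocyte-like class. Within monocytes the non-classical class, with 2279 and 2352 CPM, was 2.04-fold and 1.95-fold above the classical class, with 1116 and 1205 CPM. Dendritic cell-like cells had 523 and 419 CPM and neutrophil-like cells 138 and 118 CPM.

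Ctsl (ENSMUSG00000021477, chr13:64359337-64370890, minus strand) encodes cathepsin L, an endopeptidase with a broad range of substrates. Folr2 macrophage-like cells were again highest, at 1063 CPM in WT and 905 in KO, which was 1.92-fold and 1.58-fold above Olfml3 macrophage-like cells. CCR2+ macrophage-like cells held 621 and 881 CPM, so that the Folr2 class exceeded them 1.71-fold in WT but 1.03-fold in KO, where the interval of 0.983 to 1.07 included equality. Unlike Ctsb, Ctsl was lower in non-classical than in classical monocyte-like cells taken as classes, by a factor of 0.475 in WT and 0.682 in KO. The classical class joined 2 clusters, at 413 and 358 CPM (S100a8-led) and at 201 and 140 CPM (Ly6c2-led). Its Ly6c2-led cells overlapped with the non-classical class, so the order held for the S100a8-led cells only. Taken as classes, non-classical monocyte-like cells, at 157 and 179 CPM, were the lowest of the 10 myeloid classes, below neutrophil-like cells at 270 and 229 CPM. By cluster, Ngp-led neutrophil-like cells were lower, at 89.6 and 75.4 CPM, and the Acod1-led ones overlapped at 231 and 161 CPM. Dendritic cell-like cells led by Clec9a (14.6 and 16.4 CPM) and by Fscn1 (8.93 and 4.61 CPM) were lower too.

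Ctss (ENSMUSG00000038642, chr3:95526786-95556403, plus strand) encodes cathepsin S, which trims the invariant chain of MHC class II in antigen-presenting cells. Its place in Folr2 and CCR2+ macrophage-like cells was the reverse of that of Ctsb. CCR2+ macrophage-like cells were highest with 2973 CPM in WT (2926 to 3019) and 3406 in KO (3358 to 3454), and Folr2 macrophage-like cells were the lowest macrophage-like class with 873 and 844 CPM. The Folr2 class was thus at 0.294 and 0.248 of the CCR2+ level and at 0.435 and 0.402 of the classical monocyte-like level. By cluster, the Hist1h2ae-led part of the cycling class was lower than the Folr2 class, at 760 and 725 CPM. Taken as classes, Cd207 Clec4f macrophage-like cells, with 2501 and 2148 CPM, came next, above classical monocyte-like cells, with 2007 and 2098 CPM. The Ly6c2-led classical cells, at 2347 and 2230 CPM, overlapped with the Cd207 Clec4f class. The order thus held only for the S100a8-led classical cells, at 1791 and 1995 CPM. Dendritic cell-like cells had 634 and 729 CPM. Neutrophil-like cells held 30.7 and 34.3 CPM, 65.4-fold and 61.1-fold below classical monocyte-like cells. Most of these UMIs, 55 in WT and 67 in KO, came from the neutrophil-like cells led by Acod1, at 107 and 229 CPM, against 6.25 and 0 CPM in those led by Ngp.

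Ctsz (ENSMUSG00000016256, chr2:174427493-174439039, minus strand) encodes a carboxypeptidase also called cathepsin X. Of the 10 members its levels varied least across macrophage-like and monocyte-like classes. CCR2+ macrophage-like cells held 903 and 951 CPM and overlapped with cavity macrophage-like cells at 947 and 762 CPM, and non-classical monocyte-like cells had 499 and 519 CPM. Dendritic cell-like cells, with 500 and 485 CPM, overlapped with the non-classical class. Neutrophil-like cells as a class were lower at 228 and 140 CPM. B cell-like cells, with 305 and 318 CPM, were above the neutrophil-like class in both libraries. The Acod1-led neutrophil-like cells, at 577 and 444 CPM, were above B cell-like cells and overlapped with the non-classical class.

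Ctsk (ENSMUSG00000028111, chr3:95499256-95509362, plus strand) encodes cathepsin K, the collagen-degrading protease of osteoclasts, and lies 17.4 kb from Ctss. It was barely detected. In the 9 myeloid classes other than CCR2+ macrophage-like cells it gave 0 to 15 UMIs per library and at most 7.41 CPM. CCR2+ macrophage-like cells had 26 UMIs in 16 of 211 WT cells and 107 UMIs in 26 of 189 KO cells. A single KO cell held 37 of those UMIs and the top 3 cells held 56. WT neutrophil-like cells had 0 UMIs, which allows up to 1.06 CPM by the limit of 3 counts.

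Ctsc (ENSMUSG00000030560, chr7:88278085-88310888, plus strand) encodes cathepsin C, a dipeptidyl peptidase that activates the serine proteases of neutrophil and lymphocyte granules. Folr2 macrophage-like cells, with 1581 and 1661 CPM, and Olfml3 macrophage-like cells, with 1520 and 1669 CPM, were highest and overlapped. Classical monocyte-like cells held 1124 and 1284 CPM and cavity macrophage-like cells, the lowest macrophage-like class, 896 and 713 CPM. Neutrophil-like cells had 42.4 and 23.1 CPM, 26.5-fold and 55.6-fold below classical monocyte-like cells. Here too the cells led by Acod1 stood out, with 120 and 154 CPM, against 27.2 and 11.2 CPM in those led by Stfa1 and 16.7 and 2.96 CPM in those led by Ngp.

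Ctsh (ENSMUSG00000032359, chr9:90054152-90076089, plus strand) encodes cathepsin H, an aminopeptidase. CCR2+ macrophage-like, Cd207 Clec4f macrophage-like and classical monocyte-like cells overlapped at the top with 515 to 565 CPM, and cavity macrophage-like cells, with 557 CPM in WT and 421 in KO, overlapped with all 3. Dendritic cell-like cells were at 454 and 439 CPM as a class, which averages clusters from 223 and 220 CPM in cells led by Clec9a to 1130 and 1071 CPM in cells led by Siglech. Non-classical monocyte-like cells had 0.450 and 0.509 of the classical level. Cycling macrophage-like cells were at 280 and 287 CPM, and neutrophil-like cells at 69.2 and 67.3 CPM.

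Lyz2 (ENSMUSG00000069516, chr10:117277331-117282321, minus strand) encodes the lysozyme of macrophages and granulocytes. It was highest in classical monocyte-like cells, with 20682 CPM in WT (20562 to 20803) and 21363 in KO (21248 to 21480). Non-classical monocyte-like cells had 9598 and 11806 CPM and cavity macrophage-like cells 14198 and 8863 CPM. The other macrophage-like classes lay between 2860 and 9151 CPM and neutrophil-like cells at 4489 and 5585 CPM. Dendritic cell-like cells had 151 and 209 CPM. Its neighbour Lyz1 lies 5.48 kb away and is near-identical in sequence, so how reads were divided between these 2 genes is uncertain.

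Lamp1 (ENSMUSG00000031447, chr8:13159161-13175338, plus strand) encodes a major glycoprotein of the lysosomal membrane. Cavity macrophage-like cells were highest with 620 and 690 CPM. Folr2 macrophage-like cells followed with 541 and 574 CPM and CCR2+ macrophage-like cells with 524 and 503 CPM, and the 3 classes did not overlap. The monocyte-like classes held 291 to 380 CPM. Dendritic cell-like cells, with 94.1 and 75.7 CPM, and neutrophil-like cells, with 94.9 and 75.9 CPM, were not distinct from each other.

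**Figure D2:**
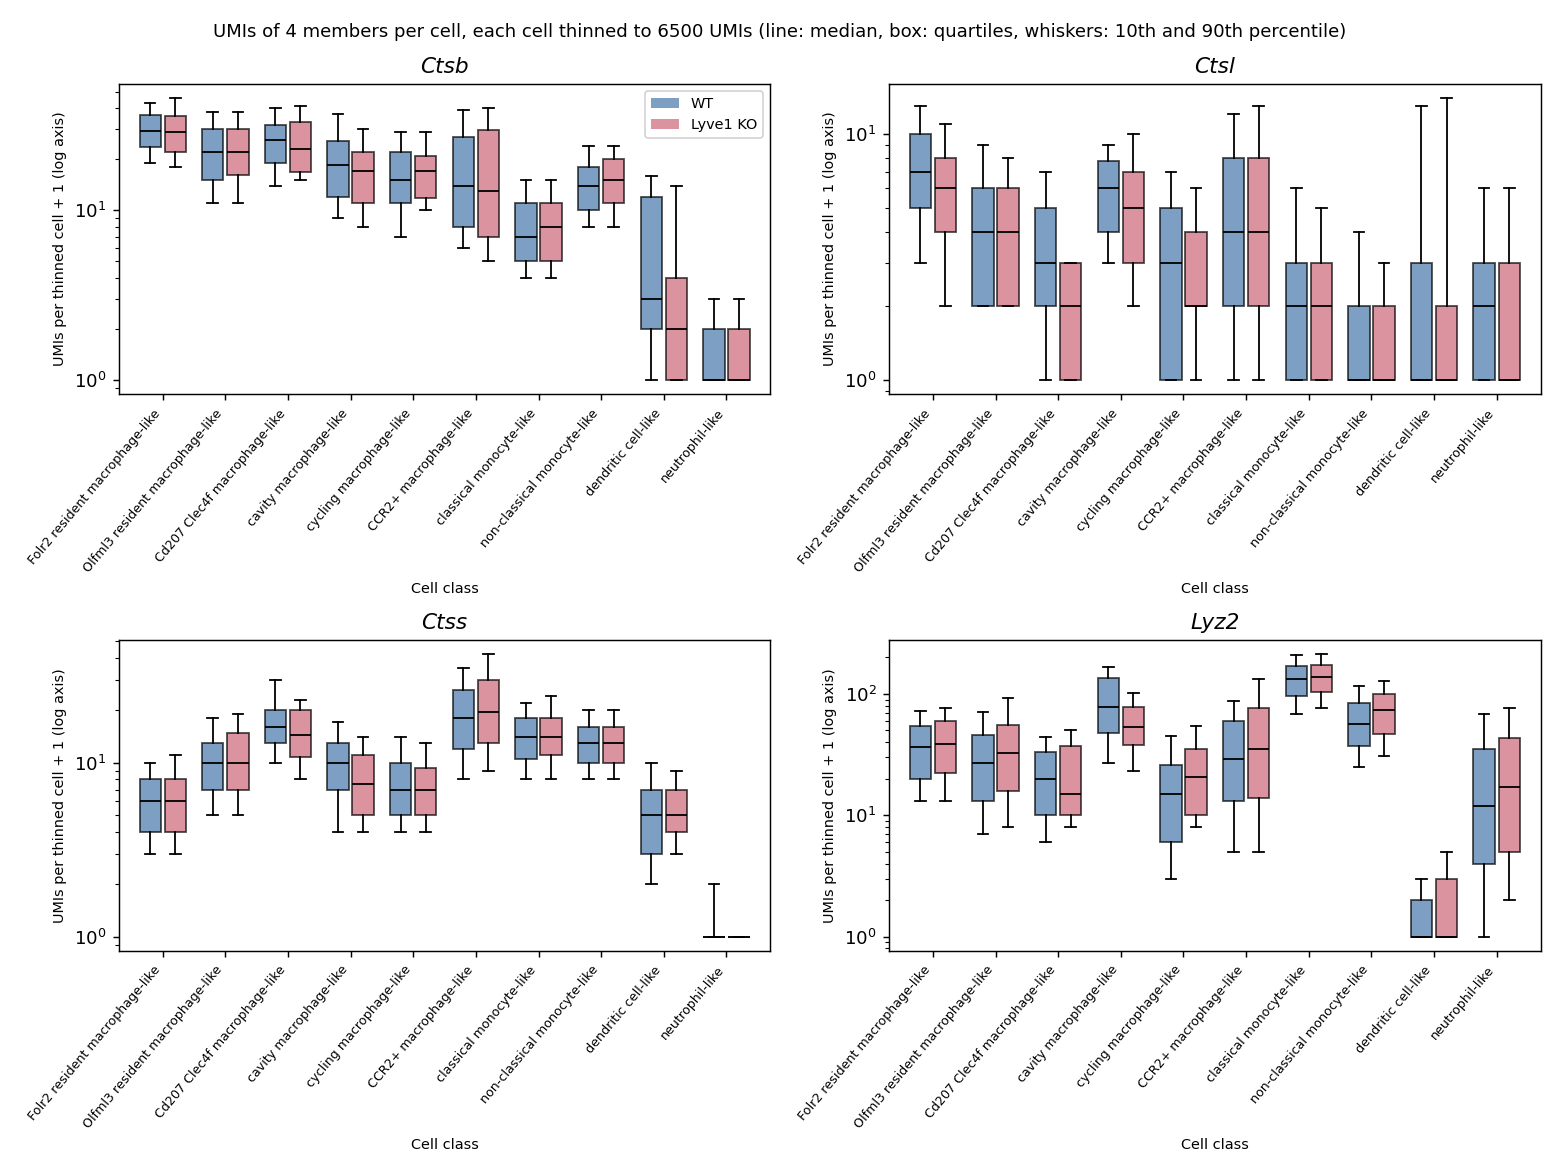
UMIs per cell of Ctsb, Ctss, Ctsl and Lyz2 after each cell was thinned to 6500 UMIs, plus 1 (vertical log axis; lines are medians, boxes quartiles and whiskers the 10th and 90th percentiles), by myeloid class and library. Ctsb was spread high over macrophage-like cells and Ctss over CCR2+ macrophage-like, Cd207 Clec4f macrophage-like and monocyte-like cells, in both libraries.

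The promoters were searched for letters that the members share beyond their names. The CACGTG core is the centre of the element bound by TFEB and TFE3, master factors of lysosomal genes, and reads the same on both strands. GAGGAA is the core bound by PU.1, the ETS factor of myeloid cells, and was looked for on both strands. The 2 motifs do not overlap in letters. RefSeq windows of 250 bases before the transcript start (GRCm38.p6) were found for 8 members, with none used here for Ctsb and Ctsh. Over the whole 250 bases, which for some genes reach into an exon of another transcript, CACGTG was in 3 of the 8 (Ctsd, Ctsl and Lamp1) and GAGGAA in 3 (Ctss, Ctsk and Ctsc). Among 32536 windows of all genes, 6.04% held CACGTG and 23.4% held GAGGAA. Lamp1 held 4 CACGTG cores at 9, 22, 39 and 55 bases from the start, a number that 7 of all windows (0.0215%) reached. Of 76 other lysosomal genes with a window, 15 (19.7%) held a CACGTG core, against 6.86% of all 27025 genes with a window. From these windows 3 sequences are shown, 5′ to 3′ on the strand of the gene with the motif in capitals, the Lamp1 window (chr8:13158911-13159160) for its 4 cores, the part of the Ctsd window that lies outside exons (chr7:142388039-142388077) for its single core, and the Ctss window (chr3:95526536-95526785) for the other motif.
Lamp1: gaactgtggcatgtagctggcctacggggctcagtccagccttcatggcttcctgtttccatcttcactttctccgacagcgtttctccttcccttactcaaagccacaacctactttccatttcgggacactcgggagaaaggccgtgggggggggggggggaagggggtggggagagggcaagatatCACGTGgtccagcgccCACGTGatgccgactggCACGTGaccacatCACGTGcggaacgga
Ctsd: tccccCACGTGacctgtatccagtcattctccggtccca
Ctss: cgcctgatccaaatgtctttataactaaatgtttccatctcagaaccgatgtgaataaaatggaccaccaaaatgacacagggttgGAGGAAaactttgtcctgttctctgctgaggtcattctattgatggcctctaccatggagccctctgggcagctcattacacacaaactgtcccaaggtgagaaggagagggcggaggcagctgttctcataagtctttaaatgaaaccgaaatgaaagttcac
Of the genes with CACGTG, Lamp1 was highest in cavity macrophage-like cells, Ctsd in the overlapping cavity and Folr2 classes and Ctsl in Folr2 macrophage-like cells. Of those with a window but without it, Ctss was highest in CCR2+ macrophage-like cells and Lyz2 in classical monocyte-like cells. Ctsc was highest in the overlapping Folr2 and Olfml3 classes and Ctsz in the overlapping CCR2+ and cavity classes. The sparse Ctsk was highest in CCR2+ macrophage-like cells, which overlapped with the cycling class. A match of letters says nothing on whether a factor was bound.

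Members were next set beside each other over 13 classes and 2 libraries, as log-scaled levels at 26 points. These points share libraries, and classes of the same lineage resemble each other, so the correlations are descriptions. Ctsz and Ctsh were the most alike pair (Pearson's r = 0.97), followed by Ctsb and Lamp1 (0.96) and Ctss and Ctsc (0.93). The lowest values were 0.31 for Ctsd with Ctsh, 0.33 for Ctsk with Ctsh and 0.35 for Ctsd with Ctss. Among 10476 genes compared, Cln8 (0.98) was among those most like Ctsb, and those most like Ctsd were Cxcl2 (0.95) and Zswim6 (0.92). Ctsl was most like Anxa3 (0.96) and App (0.94), Ctss most like Tep1 (0.96) and Zfp385a (0.95), and Ctsz most like Ctsh (0.97). Ctsh was most like Unc93b1 and Ctsz, Ctsc like Ehd4 and Nipa2, Lyz2 like Ctbs and Slc11a1, Lamp1 like Cmklr1 and Lamp2, and the sparse Ctsk like Cav1 and Atp6v0d2.

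**Figure D3:**
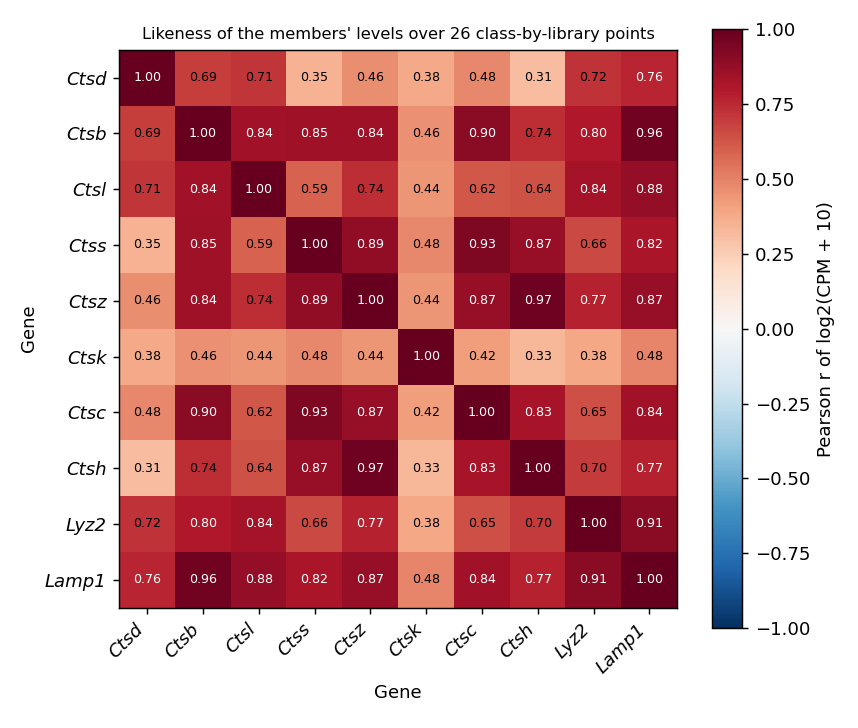
Pearson's r between the log-scaled levels of each pair of members over 13 classes and 2 libraries (26 points). Ctsz with Ctsh (0.97) and Ctsb with Lamp1 (0.96) were the most alike, and Ctsd with Ctsh was the lowest at 0.31.

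Within classes, cells at fixed depth were compared for member pairs with at least 5 UMIs per cell on average. Ctsb and Ctsd varied together from cell to cell in CCR2+ macrophage-like cells (Spearman's rho = 0.62 in 192 WT cells and 0.67 in 178 KO cells). The same pair gave 0.50 and 0.47 in Olfml3 macrophage-like cells and 0.42 and 0.49 in Folr2 macrophage-like cells. These are correlations over cells of 1 library each, which are not replicates. In KO CCR2+ macrophage-like cells Ctss with Lyz2 gave 0.43, against 0.27 in WT, and Ctsb with Ctsl also gave 0.43. The lowest values were -0.22 for Ctsd with Lyz2 in WT neutrophil-like cells and -0.12 for Ctsb with Ctss in WT Olfml3 macrophage-like cells, where the KO cells gave 0.056. Both classes mixed clusters. In WT, Lyz2 and Ctsd were at 13742 and 292 CPM in Ngp-led, 3155 and 876 in Stfa1-led and 628 and 824 in Acod1-led cells. Ctsb and Ctss were at 3526 and 1524 CPM in Olfml3-led and 3738 and 1274 in Gdf15-led cells. The part of this mixing was not tested.

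Dendritic cell-like cells were a mix of 3 clusters, and their makeup differed between the libraries. The Clec9a-led cluster held 24 WT and 23 KO cells, the cluster led by Fscn1, Cacnb3 and Il4i1 held 22 and 5, and the Siglech-led cluster 16 and 11, so the Fscn1-led cells were 35.5% of the class in WT and 12.8% in KO. Values of the whole class are averages over these clusters. Siglech-led cells, with markers of plasmacytoid dendritic cells, carried the cysteine cathepsins Ctsb (1968 and 1546 CPM), Ctsl (1587 and 1525 CPM) and Ctsh (1130 and 1071 CPM). In Clec9a-led cells, with markers of cross-presenting dendritic cells, the same genes were at 197 and 215, 14.6 and 16.4, and 223 and 220 CPM. Ctss was at 817 and 1162 CPM in the Fscn1-led cells, which overlapped with the Siglech-led cells at 936 and 978 CPM, and was lowest in the Clec9a-led cells, with 509 and 582 CPM. The Fscn1-led cells held Ctsh at 647 and 798 CPM but Ctsl at only 8.93 and 4.61 CPM. Ctsd in the Clec9a-led cluster was at 0.973 and 2.89 CPM. Lyz2 was at 10.4 and 8.47 CPM in the Siglech-led cells, near the level of T cell-like cells, and gave 0 UMIs in WT and 1 UMI in KO Fscn1-led cells. A cluster led by Cd209a, H2-Ab1 and H2-Eb1, with 37 and 37 cells, scored nearest to the dendritic cell list, with 8 of that list's markers detected. It was left unnamed because the CCR2+ macrophage list had more markers among its 10 leading genes. The values of the dendritic cell-like class therefore leave this cluster out. It held Ctss at 1264 and 1256 CPM, Ctsd at 78.3 and 175 CPM and Lyz2 at 411 and 2005 CPM.

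Neutrophil-like cells also fell into 3 clusters, of 252 and 264 cells led by Stfa1, 78 and 45 led by Acod1, and 21 and 28 led by the immature granule genes Ngp, Camp and Ltf. Lyz2 stood at 13742 and 13364 CPM in the Ngp-led cells, 3155 and 3599 in the Stfa1-led cells and 628 and 1585 in the Acod1-led cells. Ctsd took another order, with 292 and 225 CPM in the Ngp-led, 876 and 733 in the Stfa1-led and 824 and 673 in the Acod1-led cells. Ctsz was at 37.5 and 33.99 CPM in the Ngp-led, 179 and 131 in the Stfa1-led and 577 and 444 in the Acod1-led cells. Ctsb was at 79.2 and 68.0, 81.0 and 77.2, and 396 and 526 CPM in the same order. The Acod1-led cluster, which also expressed Il1rn and Csf1, thus held the most Ctsb and Ctsz and the least Lyz2 of the 3 in both libraries.

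**Figure D4:**
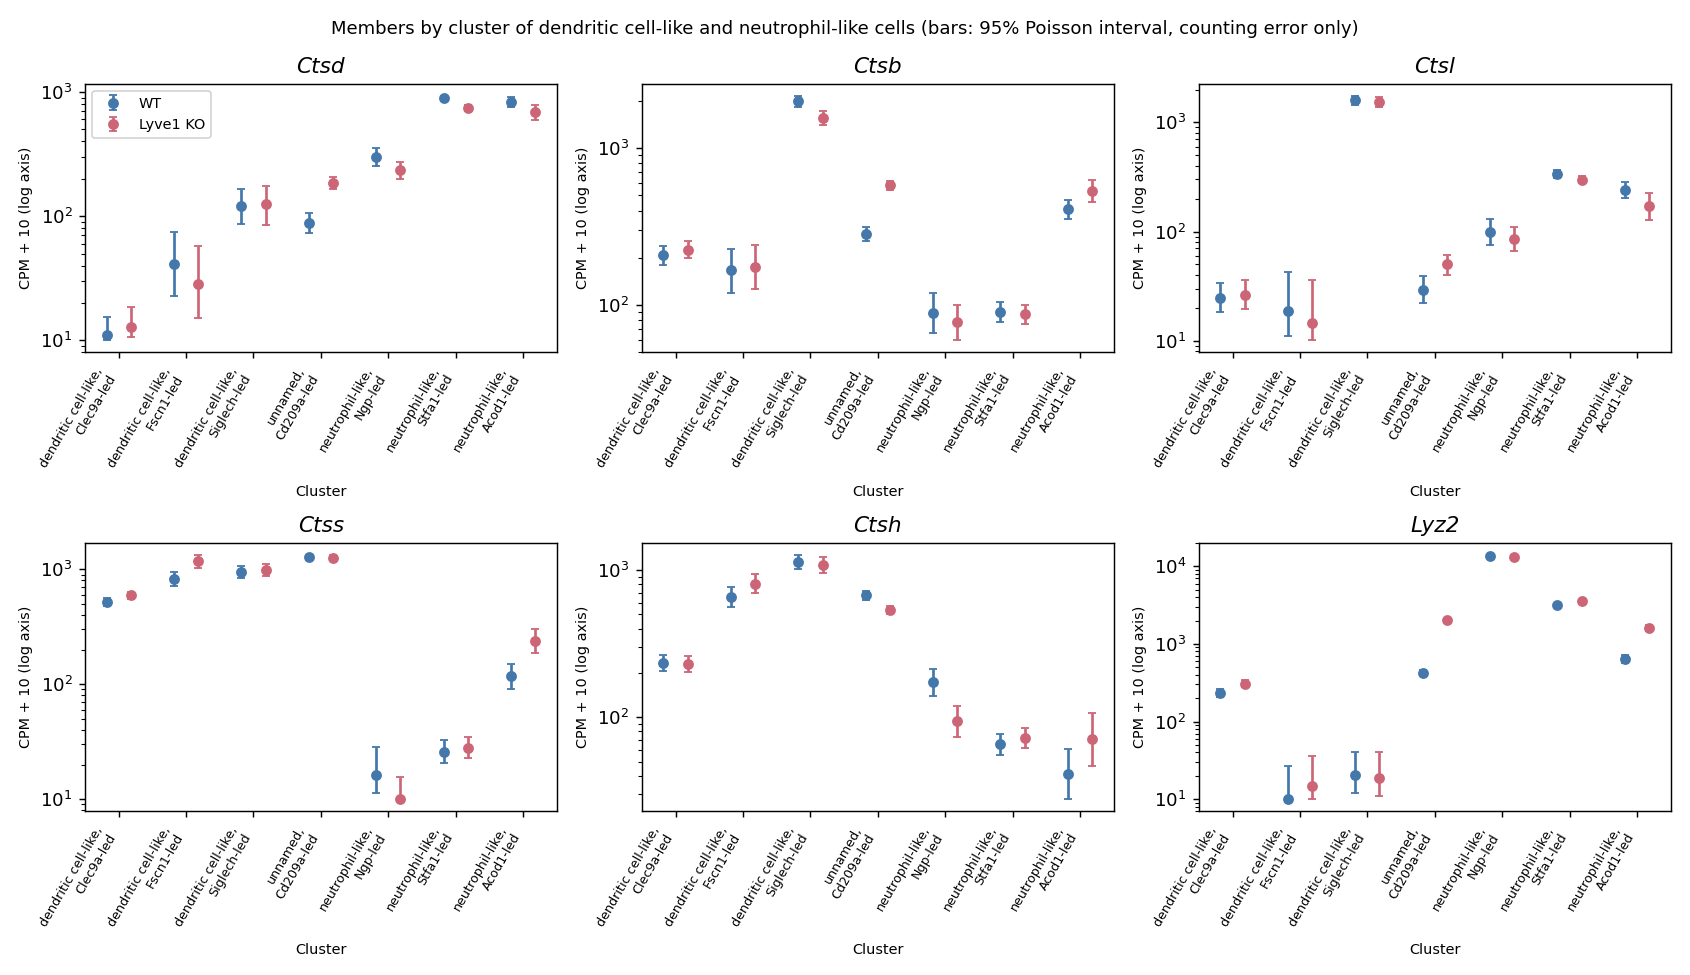
Levels (CPM plus 10, log axis) of Ctsd, Ctsb, Ctsl, Ctss, Ctsh and Lyz2 in the clusters of dendritic cell-like and neutrophil-like cells and in the unnamed Cd209a-led cluster, by library, with 95% Poisson intervals that cover counting error only. Siglech-led cells carry Ctsb, Ctsl and Ctsh, and Lyz2 is highest in the Ngp-led and lowest in the Acod1-led neutrophil-like cells in both libraries.

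The KO library was then set against the WT library within each class. The ratio was taken as log2 of KO over WT after 10 CPM was added to each level, genes with at least 100 UMIs over both libraries were used, and a ratio of 0.5 or more in either direction was counted as past the limit. Of 100 pairs of a member and a myeloid class, 90 had enough UMIs, 61 of these were under 0.25 in size, and 7 passed the limit, of which 3 were higher and 4 lower in KO. The share of all genes past the same size was 3.04% in Folr2 macrophage-like cells, 1.4% in Olfml3 macrophage-like cells, 1.99% in classical monocyte-like and 3.23% in non-classical monocyte-like cells, and in these 4 classes none of the 9 members tested passed. It was 11.8% in dendritic cell-like cells, where none of 8 members passed and the makeup by cluster differed between the libraries. In Cd207 Clec4f macrophage-like cells 1 of 9 members passed against 19.3% of all genes, and in cavity macrophage-like cells 1 of 9 against 8.48%. In cycling macrophage-like cells 1 of 9 passed against 3.64%, in CCR2+ macrophage-like cells 2 of 10 against 4.77%, and in neutrophil-like cells 2 of 9 against 7.82%. With so few members, these counts do not set the members apart from other genes. Ctsk in the CCR2+ class, with 26 UMIs in WT and 107 in KO, reached the 100 UMIs asked for through KO only. The median ratio of the members was -0.32 in cavity macrophage-like cells (all genes -0.016), -0.23 in neutrophil-like cells (-0.014), -0.21 in Cd207 Clec4f macrophage-like cells (-0.026) and 0.089 in the CCR2+ class (-0.042), and in the other 6 classes it lay between -0.047 and 0.059.

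**Figure D5:**
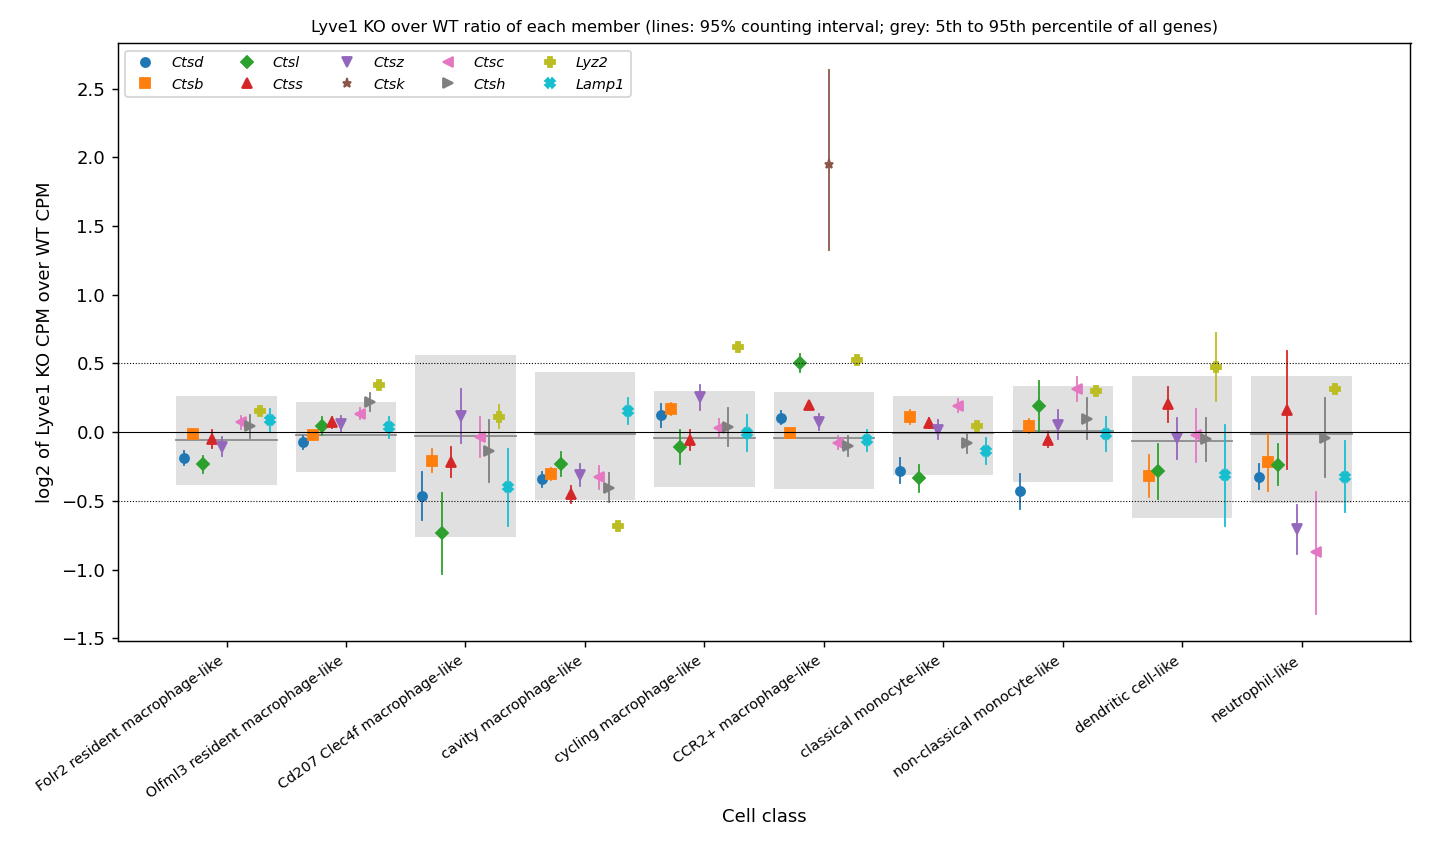
log2 ratio of KO over WT levels, without added CPM (vertical axis), of each member with enough UMIs in each myeloid class, with 95% counting intervals as lines, the range from the 5th to the 95th percentile of all genes in grey and dotted lines at 0.5 and -0.5. The grey range was taken after 10 CPM was added, so points and range are on unlike measures. In the CCR2+ class Ctsk, 3.87-fold higher in KO, is thus drawn above its ratio of 0.96 in the text. Ctsl, 1.42-fold higher there, is drawn just above the 0.5 line though its ratio of 0.497 did not pass. Most points lie inside the grey range, and Lyz2 is the member most often above 0.

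Lyz2 was higher in KO in 9 of 10 classes. In cycling macrophage-like cells it was at 2860 CPM in WT and 4389 in KO, a log2 ratio of 0.62 that passed the limit in 10 of 14 settings, over which it lay between 0.45 and 0.70. The class joined 2 clusters that differed in this. Lyz2 was at 2925 and 5181 CPM in the Cenpf-led cluster of 146 WT and 38 KO cells. In the Hist1h2ae-led cluster of 42 and 18 cells it was at 2616 and 2660 CPM. Of the 14 neutrophil markers 9 in WT and 7 in KO had UMIs in the cycling class (Lcn2, Ngp, Camp and Hdc had none in either), they summed to 19.7 CPM in WT against 42.5 in KO, and their part was not tested. In CCR2+ macrophage-like cells it was at 6343 and 9151 CPM, a ratio of 0.53 that passed the limit in 7 of 14 settings, the main one included, and was 0.75 among male and 0.26 among female cells. In Olfml3 macrophage-like cells it was at 5176 and 6553 CPM, a ratio of 0.34. Cavity macrophage-like cells went the other way, with 14198 CPM in WT, 8863 in KO and a ratio of -0.68. Over the 13 alternative ways of processing, Lyz2 stayed higher in KO in all of them in the Olfml3, cycling and CCR2+ macrophage-like, non-classical monocyte-like, dendritic cell-like and neutrophil-like classes, and turned lower in at least 1 of them in the Folr2 and Cd207 Clec4f macrophage-like and classical monocyte-like classes. In neutrophil-like cells the makeup by cluster differed. Ngp-led cells, at 13742 and 13364 CPM, were 5.98% of the class in WT and 8.31% in KO. Acod1-led cells, at 628 and 1585 CPM, were 22.2% and 13.4%, and Stfa1-led cells were at 3155 and 3599 CPM. Of the dendritic cell-like cells, Clec9a-led ones, at 223 and 297 CPM, were 38.7% in WT and 59.0% in KO. The part of this makeup was not tested.

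Cells were also split by sex-linked transcripts, since both pools held cells of either sex, with 1982 male and 1038 female cells called in WT and 1435 and 984 in KO. A further 1097 WT and 931 KO cells were called neither, and 70 and 41 were called both. Among male cells and among female cells taken apart, Lyz2 had the same sign of its ratio in 8 of 10 classes, with Folr2 and Cd207 Clec4f macrophage-like cells the exceptions. Over all members and classes with enough UMIs in both, male and female cells had the same sign in 52 of 85 pairs. No share of all genes is given beside this count, so it does not set the members apart. Some classes were small, with 6 male and 10 female KO cells in the Cd207 Clec4f class.

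Ctsd was lower in KO in 7 of 9 classes, and the exceptions were CCR2+ macrophage-like cells, at 1130 and 1217 CPM, and cycling macrophage-like cells, at 724 and 788 CPM, which turned lower in KO in 6 of the 13 alternatives. Ctsb, Ctsl and Lamp1 were each lower in 7 of 10 classes, so this count was not particular to Ctsd. The median ratio of all genes lay between -0.066 and 0.011 over the 10 classes. In Cd207 Clec4f macrophage-like cells Ctsd was at 1129 and 818 CPM, a ratio of -0.46 that rests on 17 KO cells and passed the limit in 6 of the 13 alternatives, with a range from -0.81 to -0.30. Ctsl in the same class was at 477 and 288 CPM, a ratio of -0.71 from 692 WT and 114 KO UMIs. Beside these values, 7 of the 8 cardiomyocyte markers had UMIs in WT (Myh7 had none) and 6 in KO (Myh7 and Ttn had none), they summed to 233 CPM in WT and 68.1 CPM in KO cells of that class, and their part in the difference was not tested.

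Cavity macrophage-like cells had lower KO values for 8 of 9 members tested, the exception being Lamp1 at 620 and 690 CPM, and their summed share was 2.47% of UMIs in WT and 1.74% in KO. In the same cells the 13 macrophage markers, all with UMIs, summed to 27473 CPM in WT and 18514 in KO, the 18 monocyte markers, of which Cd300e alone was at 0, summed to 2178 and 2989 CPM, and the median depth was 48814 and 55409 UMIs. How far those shifts bear on the members was not tested. The median ratio in this class was -0.32 for the members and -0.016 for all genes. Among its female cells, 15 in WT and 10 in KO, Ctsl was at 0.20 and Ctsh at 0.12, with Ctsz at -0.015 and Ctsc at -0.031. Lamp1 was at -0.0027 among male and 0.45 among female cells. Ctsb, Ctsd, Ctss and Lyz2 were lower in KO among male and among female cells.

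CCR2+ macrophage-like cells had Ctsk at 4.91 CPM in WT (3.21 to 7.19) and 19.0 in KO (15.6 to 23.0), a log2 ratio of 0.96. Without the single highest cell of each library the levels were 3.78 and 12.4 CPM. Among male cells it gave 11 UMIs in WT and 81 in KO (3.61 and 24.3 CPM) and among female cells 15 and 17 (6.97 and 8.65 CPM), in both cases fewer than the 100 UMIs asked for. The same KO cells had Ctsl at 881 against 621 CPM in WT, a ratio of 0.497 that was just short of the limit and that ranged from 0.16, as a mean over cells, to 0.54 over the alternatives. The members together made up 1.71% of UMIs in WT and 2.06% in KO, a log2 ratio of 0.27 that was 0.097 among female cells. Beside these values the 13 macrophage markers, all with UMIs, summed to 21089 CPM in WT against 16270 in KO. The 8 cardiomyocyte markers, all with UMIs in WT and all but Ttn in KO, summed to 57.4 CPM in WT against 13.9 in KO. The part of these shifts was not tested.

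In neutrophil-like cells Ctsz was at 228 CPM in WT and 140 in KO, a ratio of -0.67, and Ctsc at 42.4 and 23.1 CPM, a ratio of -0.66. Among male cells Ctsz was at -1.15 and among female cells, of which the class had 26 in WT and 35 in KO, at 0.15. Ctsc gave 61 UMIs in WT and 11 in KO among male cells and 1 and 29 among female cells, in both cases fewer than the 100 UMIs asked for. The Acod1-led cluster with the most Ctsz was 22.2% of the class in WT and 13.4% in KO, and Ctsz was also lower in KO within each of the 3 clusters. Ctsc was lower in KO in the Stfa1-led and Ngp-led clusters and higher in the Acod1-led one. Of the 7 erythroid markers, 4 in WT and 5 in KO had UMIs (Alas2 had none in either), and they summed to 108 CPM in WT and 16.2 CPM in KO neutrophil-like cells, and their part in these values was not tested.

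The other genes of the lysosome were read from a list of 94, sorted by role. In all WT macrophage-like cells together, the highest of the other proteases were Lgmn (1617 CPM), Ctsa (628 CPM) and Tpp1 (243 CPM), and the highest of the protease inhibitors Cst3 (2826 CPM), Cstb (565 CPM) and Csta2 (12.4 CPM). The highest glycosidases and their cofactors were Psap (1860 CPM), Man2b1 (592 CPM) and Hexa (478 CPM), and the highest lipid and nucleic acid enzymes or carriers Npc2 (848 CPM), Pld4 (400 CPM) and Asah1 (299 CPM). Among membrane proteins Laptm5 (1395 CPM), Cd68 (686 CPM) and Cd63 (546 CPM) led, among subunits of the proton pump Atp6v0c (1158 CPM), Atp6v0b (447 CPM) and Atp6v1a (364 CPM), and among regulators and sorting receptors Grn (1412 CPM), M6pr (195 CPM) and Mitf (136 CPM). Legumain (Lgmn), an asparaginyl protease that matures several cathepsins, followed the macrophage-like classes with 1810 and 1585 CPM in Folr2 macrophage-like cells, 253 and 212 CPM in classical monocyte-like cells and 12.4 and 8.58 CPM in neutrophil-like cells. Cystatin C (Cst3), a secreted inhibitor of cysteine cathepsins, had its highest level in dendritic cell-like cells at 17846 and 14598 CPM, against 3518 and 3306 CPM in Folr2 macrophage-like cells. Prosaposin (Psap), the precursor of the saposins that help degrade sphingolipids, was at 4083 and 4554 CPM in classical monocyte-like cells and 1457 and 1398 CPM in Folr2 macrophage-like cells. Progranulin (Grn), a lysosomal cofactor, was at 2068 and 1970 CPM in the Folr2 class and 453 and 459 CPM in classical monocyte-like cells.

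Between the libraries, few of these genes passed a ratio of 0.5, and the median ratio of those with enough UMIs lay between -0.090 and 0.020 in the 10 classes. Each count is set against the share of all genes past the limit. In Olfml3 and in cycling macrophage-like cells none of 79 and of 77 genes with enough UMIs passed, against 1.4% and 3.64%. In Folr2 macrophage-like cells 1 of 76 passed, against 3.04%, the acid phosphatase Acp5 at -0.84, which was named after its value was seen. In classical monocyte-like cells 1 was higher and 1 lower of 82, against 0.491% and 1.5% of all genes. In non-classical monocyte-like cells 2 were higher and 3 lower of 76 (all genes 1.26% and 1.97%), and in cavity macrophage-like cells 1 and 5 of 76 (3.73% and 4.75%). In Cd207 Clec4f macrophage-like cells it was 3 and 3 of 60 (7% and 12.3%), in dendritic cell-like cells 0 and 1 of 50 (3.17% and 8.68%), and in neutrophil-like cells 2 and 3 of 62 (2.5% and 5.32%). In macrophage-like and monocyte-like cells outside the CCR2+ class, those past a ratio of 1 were Cd164 in Cd207 Clec4f macrophage-like cells (-1.01), Lyz1 in cavity macrophage-like cells (-1.72, with 263 UMIs in 20 WT cells and 63 in 17 KO cells), and Lyz1 (1.24), Stfa1 (-1.70) and Stfa2l1 (-1.16) in non-classical monocyte-like cells. In the last class single cells held 82 of 94 KO UMIs of Lyz1, 137 of 180 WT UMIs of Stfa1 and 56 of 74 WT UMIs of Stfa2l1.

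CCR2+ macrophage-like cells had 6 higher and 1 lower of 85, against 1.51% higher and 3.26% lower of all genes, and 4 of the 6 were stefins (Csta2, Stfa2, Stfa2l1 and Stfa3), cytosolic inhibitors of cysteine cathepsins. Csta2, at a ratio of 1.26, had 369 UMIs in 35 WT cells and 1021 UMIs in 50 KO cells. Stfa2 rested on 1 KO cell with 296 of 299 UMIs and Stfa2l1 on 1 KO cell with 102 of 103. The stefin genes are a family of near copies, so the division of reads among them is uncertain. The 14 neutrophil markers, whose cells express several stefins, of which Ngp and Camp in WT and Camp in KO had no UMI, summed to 208 CPM in WT and 133 CPM in KO cells of this class, and their part was not tested. The subunit Atp6v0d2 of the proton pump was higher at 0.77 and the sorting receptor Igf2r at 0.61, and the calcium channel Mcoln1 was lower at -0.58. These 3 genes and Stfa3, at 0.75, were named after their values were seen.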

How the data were processed

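The 2 libraries (Chromium GEM-X 5′) were read. The authors deposited 1 matrix per library of raw UMI counts per gene and barcode, made with Cell Ranger 8.0.1 on mm10 per the file headers and the submitters' notes, so all levels are counts divided by totals. The study removed doublets by genotype, which could not be repeated here. A barcode was kept when it had 500 or more genes, 250 or more UMIs and no more than 30% of UMIs from mitochondrial genes (4285 of 5713 barcodes in WT and 3464 of 5285 in Lyve1 KO). Scrublet in scanpy 1.11.5 marked only 1 and 4 cells by its own threshold, so the highest-scoring 98 and 73 cells were left out by an expected rate of 0.4% per 1000 barcodes. Cells were integrated and clustered in Seurat 5.3.0 (R 4.3.3) with 2000 variable genes, 30 dimensions, 20 neighbours, resolution 0.8 and cell cycle scores regressed out, first all cells and then the clusters nearest, among blood cell lists, to macrophages or monocytes, which included a cluster named after cardiomyocyte markers (led by Ccl8 and Actc1) and an unnamed one led by Mmp12. Members, other lysosomal genes, Lyve1 and sex-linked genes were left out of the clustering features.

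A cluster was named when at least 3 markers of a list were found in at least 25% of its cells, unless another list had more markers among its 10 leading genes or its depth was low. That scoring was set after the data were seen. UMIs were summed per class and library and given as CPM, per 1000000 UMIs of all genes, with exact 95% Poisson intervals. Shares of cells were taken at 6500 UMIs per cell, which leaves out shallower cells. Gene positions follow GRCm38 with GENCODE annotation, and promoter sequences RefSeq. The ratio script was tested on simulated counts. Python 3.11.15, numpy 2.4.6, scipy 1.17.1 and pandas 2.3.3 were used.

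Members and gene lists were chosen with earlier results of these data known. The genes named were the members, Lyve1, the 2 genes most correlated with each member over classes, and, of the other lysosomal genes, the 3 highest per role in WT macrophage-like cells and those past a log2 ratio of 1 in a macrophage-like or monocyte-like class. Some genes that these rules or the marker lists name are not reported here.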

Additional observations from a re-analysis of the deposited data

Results flagged for a closer look

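In neutrophil-like cells the KO over WT log2 ratio of Ctsb had opposite signs in male and female cells, at -0.53 among male cells and 0.67 among female cells. In dendritic cell-like cells Ctsl was at 0.57 among male and -1.41 among female cells, and Lamp1 at 0.54 among male and -0.999 among female cells. The dendritic cell-like class mixes 3 clusters in unequal shares (Fscn1-led cells were 35.5% in WT and 12.8% in KO), and Ctsl was at 1587 and 1525 CPM in the Siglech-led cells against at most 16.4 CPM in the others. Lamp1 was at 406 and 235 CPM in the Fscn1-led cells against at most 84.7 CPM in the others. Neutrophil-like cells mix clusters too, with Ctsb at 396 and 526 CPM in the Acod1-led cells, which were 22.2% of the class in WT and 13.4% in KO, against at most 81.0 CPM in the others. These differences between male and female cells were not tested. The female neutrophil-like cells numbered 26 in WT and 35 in KO, and the dendritic cell-like cells 28 and 25 male and 30 and 10 female.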

How the results depend on the processing

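The alternatives were stricter cell limits, doublets kept, all variable genes, no cell cycle regression, clustering at resolution 1.2 or 0.4, means over cells, totals without mitochondrial UMIs, centring on the median gene, thinned cells, male cells, female cells and 1 CPM added. The number of member and class pairs past 0.5 was 7 and within 1.5 times of that except with doublets kept (11) and among male cells (13). Of the 10 members, 5 had the same highest WT class among female cells and 8 to 10 under the other alternatives. The summed members' log2 ratio in Olfml3 macrophage-like cells, 0.150, was 0.180 with stricter limits, 0.198 at resolution 0.4, 0.171 with centring, 0.129 among male and 0.232 among female cells. In CCR2+ macrophage-like cells, 0.270 became 0.287 with stricter limits, 0.243 with doublets kept, 0.166 with all variable genes, 0.218 without cell cycle regression, 0.237 at resolution 1.2, 0.292 at resolution 0.4, 0.204 as a mean over cells, 0.312 with centring, 0.211 thinned, 0.415 among male and 0.0970 among female cells. Ctsz and Ctsc in neutrophil-like cells changed sign among female cells, to 0.148 and 2.57, the latter from 1 WT and 29 KO UMIs. The cause of these moves was not tested. Class borders also moved by some cells with the processor kernel of the linear algebra library, in a run that was not tabulated, and Ctsd in Cd207 Clec4f macrophage-like and Lyz2 in CCR2+ macrophage-like cells lay close enough to the limit to cross it there, so that 2 rather than 3 of the 7 pairs were higher in KO. No paired analysis was possible because there is 1 library per genotype, and no library could be left out for the same reason. Depth limits Ctsk in every class, and 17 KO cells limit the Cd207 Clec4f macrophage-like class.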
